A study of Brassica napus with 12 samples.

Results

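Methyl jasmonate (MeJA) was compared with the solution it was sprayed in, ethanol with the wetting agent UN65, in true leaves of Brassica napus (oilseed rape). The comparison was chosen by treatment label and holds 4 of the 12 labelled RNA-seq libraries of the series, 2 sprayed with MeJA and 2 with ethanol-UN65. All the plants were of genotype RV31, grown for 21 days under white light, sprayed with 4 mL of solution and harvested 4 h later. The MeJA spray held 100 µM MeJA with the same 0.01% ethanol and 0.01% UN65 that made up the control spray, so that by the study's methods the 2 sprays differ in MeJA alone. A further 2 libraries from plants sprayed with distilled water are given as a baseline. Each group carries the replicate numbers 41 and 42, and values of a group are given in that order. The study's methods state that 3 independent replicates of each treatment were pooled for RNA-seq, and the labels do not say whether libraries 41 and 42 came from separate plants, so the tests measure the spread between libraries, which may be technical.

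Jasmonates are lipid-derived hormones that plants make after wounding and insect feeding. MeJA taken up by a leaf is converted to jasmonic acid and then to its isoleucine conjugate, which joins the F-box protein COI1 to JAZ repressor proteins and leads to their destruction. The transcription factor MYC2 and its relatives are then free to act. In Arabidopsis the genes they switch on include those of jasmonate synthesis and breakdown, the JAZ repressors themselves, vegetative storage proteins and, in the cabbage family, the genes that make glucosinolates, the sulfur-rich precursors of mustard oils. A second branch, which also needs ethylene, drives plant defensins and chitinases, and jasmonates are known to slow cell division and to speed the loss of chlorophyll.

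The values are FPKM (fragments per kilobase of transcript and depth of mapped fragments), and each library was divided by its median ratio to the mean of the 12 libraries. Over the 49701 loci tested, the log2 values of the 2 MeJA libraries correlated at r = 0.908 and those of the 2 ethanol-UN65 libraries at r = 0.926, with 0.878 to 0.894 between groups, across loci that are not independent. How many reads each library held is unknown. If low values rise in steps of whole reads, their most common ratio to herbivory library 42 gives an estimate of relative depth. It put the MeJA libraries at 72.8% and 71.8% of that library and ethanol-UN65 library 42 at 64.7%, while no step was found for ethanol-UN65 library 41. No read totals were at hand to check the estimate, and any further scaling within the FPKM values would shift it. Leaf mesophyll markers were abundant in all 4 libraries, with RBCS1B, a Rubisco small subunit, at 27239 and 38332 FPKM in the MeJA libraries, against 18814 and 18208 FPKM in the ethanol-UN65 libraries, summed over 8 loci. No locus of the root, shoot meristem or seed markers reached the minimum level for testing. 3 stretches of chromosome, with 1073 tested loci, stood apart from the rest of the genome in 1 or more of the 4 libraries. At the start of chromosome A09 (421 loci) MeJA library 41 and both water libraries were low, in a part of A03 (521 loci) ethanol-UN65 library 41 was low, and at the start of C04 (131 loci) every sprayed library but ethanol-UN65 library 41 was low. Loci inside these stretches are named as such where they appear.

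Few single loci passed the test. A locus counted as called when limma gave it an adjusted p (Benjamini-Hochberg) under 0.05 and its log2 fold change was 1 or more in either direction, and 2 of 49701 loci (0.00402%) were called, both higher with MeJA. Before adjustment, 2380 loci (4.79%) were higher and 1988 (4.00%) lower with MeJA at an unadjusted p under 0.05. Both MeJA libraries lay above both ethanol-UN65 libraries at 10855 loci (21.8%) and below both at 11385 loci (22.9%). The median log2 fold change over all loci was -0.01 and the median standard error 0.36. An exact permutation test of 2 libraries against 2 cannot go below p = 0.333, so single values rest on limma, whose spread is shared by all 12 libraries. When the columns were set to equal totals instead, the median over all loci moved to -0.19 and the loci with an unadjusted p under 0.05 to 1498 higher and 3091 lower, so that 32.6% of them were higher, against 54.5% by median ratio. Within 20 lists of genes known from Arabidopsis, 214 of 250 genes had tested loci. Of these 787 loci none was called, 204 were higher and 30 lower at an unadjusted p under 0.05.

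Both called loci lie on chromosome C03 and were near 0 in every library without MeJA. Each passed the minimum level for testing through the MeJA libraries alone. The spread limma used for them was shared with groups at or near 0, so it may understate the spread between MeJA libraries. BnaC03g53830D, positions 39906459 to 39906903 (build not given in the sources used here), matches Arabidopsis AT3G44830, a member of the lecithin:cholesterol acyltransferase family, whose enzymes move acyl chains between lipids. It had 5.90 and 6.13 FPKM in the MeJA libraries, against 0.232 and 0 FPKM in the ethanol-UN65 libraries and 0 and 0 FPKM in the water libraries, a log2 fold change of 2.66 ± 0.22 (SE, limma adjusted p = 0.0378), and its highest value in the 6 libraries of the other treatments was 0.728 FPKM. BnaC03g46040D, positions 31036058 to 31036494, has no Arabidopsis match in the annotation. It had 4.86 and 4.17 FPKM in the MeJA libraries, against 0 and 0 FPKM in the ethanol-UN65 libraries, and was listed at 0 in every other library of the series, with a log2 fold change of 2.46 ± 0.22 (SE, limma adjusted p = 0.0378). Of 16 alternative settings with ethanol-UN65 as the control, 8 lost both calls and 1 lost the call of 1 locus. Among the 8, the filter of at least 1 FPKM in 4 libraries left both loci untested.

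**Figure D1:**
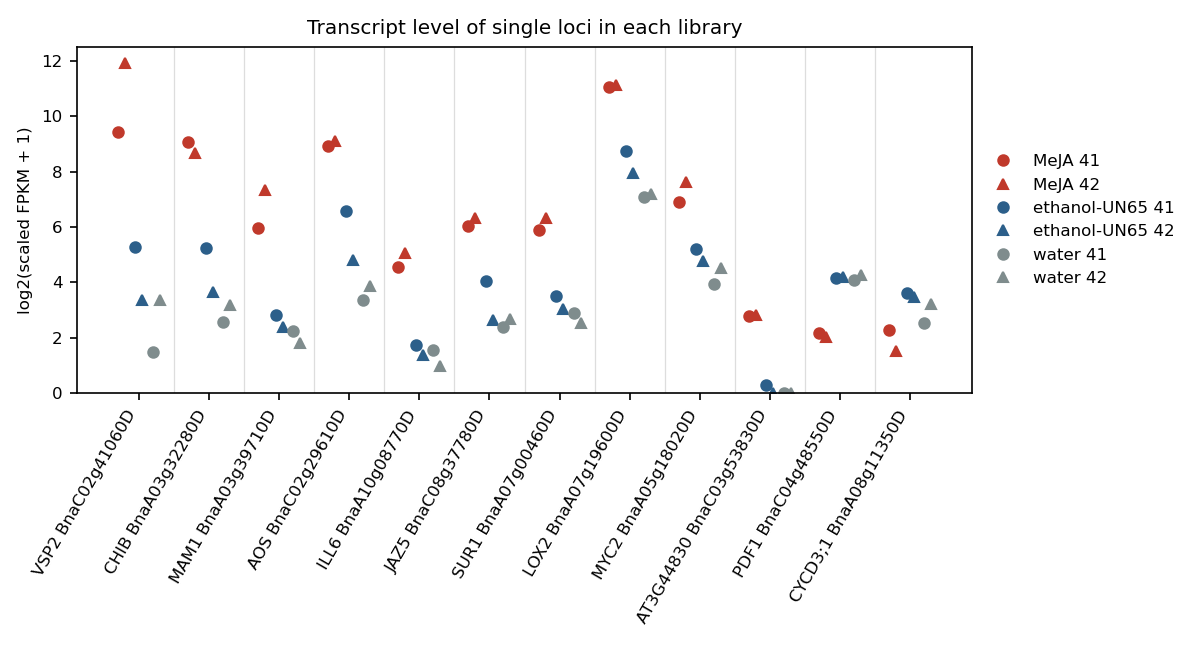
Levels of 12 loci in each sprayed library, on the vertical axis as log2(scaled FPKM + 1), with MeJA in red, ethanol-UN65 in blue and water in grey, circles for library 41 and triangles for library 42. In 10 loci both MeJA points lie above all ethanol-UN65 and water points, and at PDF1 and CYCD3;1, the rightmost 2, both lie below all of them.

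The JAZ genes, which encode the repressors of jasmonate signalling, were higher with MeJA at most loci. Tested loci were found for 11 of the 13 JAZ genes listed. Of 51 tested JAZ loci, 38 (74.5%, against 21.8% of all loci) had both MeJA libraries above both ethanol-UN65 libraries. Both lay below at 0, against 22.9% of all loci. The median log2 fold change was 1.57, 31 loci (60.8%, against 4.79% of all loci) were higher and 0 lower at an unadjusted p under 0.05, and none was called. JAZ1 BnaC08g18640D had 87.0 and 99.7 FPKM in the MeJA libraries, against 19.6 and 12.8 FPKM in the ethanol-UN65 libraries and 5.02 and 7.41 FPKM in the water libraries. The MeJA values did not overlap the others, with a log2 fold change of 2.48 ± 0.42 (SE, limma adjusted p = 0.185). JAZ5 BnaC08g37780D had 64.6 and 79.7 FPKM in the MeJA libraries, against 15.5 and 5.28 FPKM in the ethanol-UN65 libraries, a log2 fold change of 2.84 ± 0.53 (SE, limma adjusted p = 0.202). Summed over 6 loci, JAZ9 had the highest level of the family per transcript length, with 1357 and 1452 FPKM in the MeJA libraries, against 600.0 and 293 FPKM in the ethanol-UN65 libraries. The order of the libraries within a group differed between members. JAZ10, the feedback repressor whose splice forms resist destruction in Arabidopsis, had 297 and 61.6 FPKM in the MeJA libraries, against 67.6 and 20.4 FPKM in the ethanol-UN65 libraries and 2.42 and 17.6 FPKM in the water libraries, summed over 6 loci, so that MeJA library 42 lay below ethanol-UN65 library 41, and BnaA03g04250D, 1 of these loci, lies in the A03 stretch. Ethanol-UN65 library 41 was the higher of its pair at 48 of 51 JAZ loci. Without MeJA library 41 the count of JAZ loci higher at an unadjusted p under 0.05 was 18, and without ethanol-UN65 library 42 it was 13.

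The rest of the signalling core differed less. COI1, the receptor subunit, had 21.6 and 26.0 FPKM in the MeJA libraries, against 21.1 and 26.6 FPKM in the ethanol-UN65 libraries over 6 loci, and the groups overlapped. The MYC transcription factors differed among themselves. MYC2 BnaA05g18020D had 117 and 197 FPKM in the MeJA libraries, against 36.0 and 26.1 FPKM in the ethanol-UN65 libraries and 14.2 and 21.8 FPKM in the water libraries, a log2 fold change of 2.27 ± 0.48 (SE, limma adjusted p = 0.222). The second abundant copy, BnaC05g28450D, had 59.9 and 138 FPKM, against 25.2 and 23.2 FPKM, and both MeJA libraries were above both ethanol-UN65 libraries at all 3 MYC2 loci. MYC3 summed to 94.4 and 115 FPKM, against 54.7 and 60.6 FPKM over 4 loci, and MYC5 to 12.2 and 28.4 FPKM, against 16.4 and 17.2 FPKM over 6, where the groups overlapped. Negative factors differed among themselves too. JAM1, a bHLH protein that competes with MYC2 in Arabidopsis, had 73.1 and 34.3 FPKM in the MeJA libraries, against 9.68 and 10.1 FPKM in the ethanol-UN65 libraries at BnaA05g01330D, a log2 fold change of 2.23 ± 0.41 (SE, limma adjusted p = 0.202). NINJA, the adaptor between JAZ proteins and the corepressor TOPLESS, had 23.5 and 20.9 FPKM, against 8.997 and 8.39 FPKM at BnaA01g07980D. Of 4 loci each, JAM1 had 2 and JAM3 and NINJA 1 that were higher at an unadjusted p under 0.05, and 1 JAM1 locus had a log2 fold change of -1.19. JAM2 summed to 14.6 and 10.7 FPKM in the MeJA libraries, against 13.3 and 9.14 FPKM in the ethanol-UN65 libraries over 3 loci, and neither it nor JAV1, another repressor, had a locus at that level or with separated groups. Over the 46 tested loci of this list, 9 (19.6%, against 4.79% of all loci) were higher and 0 lower at an unadjusted p under 0.05. The median log2 fold change was 0.30. Without MeJA library 42 there were 5 higher.

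Among the enzymes of jasmonate synthesis, the early chloroplast steps LOX2 and AOS were higher at their main loci. LOX2, the lipoxygenase that starts the pathway in leaves, was dominated by BnaA07g19600D, with 2125 and 2256 FPKM in the MeJA libraries, against 427 and 247 FPKM in the ethanol-UN65 libraries and 134 and 143 FPKM in the water libraries, and BnaC06g18870D, with 1385 and 1652 FPKM in the MeJA libraries, against 353 and 213 FPKM in the ethanol-UN65 libraries. Their log2 fold changes were 2.75 and 2.46 (limma adjusted p = 0.202 and 0.212). The 18 tested LOX2 loci did not move as one: log2 fold changes ran between -3.01 and 2.75, with 5 loci higher and 1 lower at an unadjusted p under 0.05, and loci matching LOX2 include weakly expressed tandem copies that may share reads. AOS, allene oxide synthase, had 481 and 545 FPKM in the MeJA libraries, against 94.9 and 26.9 FPKM in the ethanol-UN65 libraries and 9.39 and 13.5 FPKM in the water libraries at BnaC02g29610D, a log2 fold change of 3.31 ± 0.75 (SE, limma adjusted p = 0.237). The second copy, BnaA02g23180D, had 223 and 267 FPKM, against 75.4 and 13.1 FPKM. OPR3, the peroxisomal reductase, summed to 86.9 and 109 FPKM in the MeJA libraries, against 33.2 and 10.1 FPKM in the ethanol-UN65 libraries over 2 loci. OPCL1, which activates the product for shortening by beta-oxidation, summed to 119 and 92.1 FPKM, against 57.9 and 23.1 FPKM. Allene oxide cyclase differed less. AOC2 had 40.98 and 12.7 FPKM in the MeJA libraries, against 50.8 and 3.58 FPKM in the ethanol-UN65 libraries over 6 loci, with overlapping groups, and AOC4 had 48.1 and 47.8 FPKM, against 37.96 and 35.8 FPKM over 2, a small gap. In all, 17 of 64 loci (26.6%, against 4.79% of all loci) were higher and 1 (1.56%, against 4.00%) lower at an unadjusted p under 0.05. The median log2 fold change was 0.45. Without ethanol-UN65 library 42 there were 11 higher and the median was 0.21.

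The list of jasmonate conjugation and turnover, mostly enzymes that remove active jasmonate, had a larger median, 2.19 over 33 loci. Of these, 18 (54.5%, against 4.79% of all loci) were higher and 0 lower at an unadjusted p under 0.05. ILL6, an amidohydrolase that cleaves jasmonoyl-isoleucine, had 22.7 and 32.0 FPKM in the MeJA libraries, against 2.31 and 1.57 FPKM in the ethanol-UN65 libraries and 1.97 and 0.992 FPKM in the water libraries at BnaA10g08770D, a log2 fold change of 3.27 ± 0.43 (SE, limma adjusted p = 0.104). Here the ethanol-UN65 and water libraries overlapped. IAR3, a related amidohydrolase, summed to 313 and 174 FPKM in the MeJA libraries, against 56.9 and 14.5 FPKM in the ethanol-UN65 libraries over 4 loci. CYP94C1, which oxidises jasmonoyl-isoleucine, summed to 60.4 and 23.3 FPKM, against 6.79 and 2.49 FPKM over 2 loci. The jasmonate hydroxylases JOX2, JOX3 and JOX4 differed between the MeJA libraries. JOX2 had 385 and 214 FPKM, against 52.0 and 20.6 FPKM, JOX3 had 144 and 28.1 FPKM, against 13.1 and 3.54 FPKM and JOX4 had 184 and 17.0 FPKM, against 5.99 and 1.09 FPKM, each with MeJA library 41 the higher. JAR1, the enzyme that makes jasmonoyl-isoleucine, had 42.7 and 39.7 FPKM in the MeJA libraries, against 44.4 and 31.4 FPKM in the ethanol-UN65 libraries over 6 loci, with overlapping groups, and none of the 18 loci was its own. 1 of its loci, BnaC04g01170D, lies in the C04 stretch. Without MeJA library 41 the list median was 1.00, with 10 loci higher at an unadjusted p under 0.05, and without ethanol-UN65 library 42 it was 1.66, with 10.

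Outputs of the MYC branch held the highest log2 fold change of any list. VSP2, a vegetative storage protein and acid phosphatase used as a jasmonate marker, had 689.6 and 3819.9 FPKM in the MeJA libraries, against 37.4 and 9.39 FPKM in the ethanol-UN65 libraries and 1.83 and 9.38 FPKM in the water libraries at BnaC02g41060D. The 2 MeJA libraries lay far apart but both lay above every other sprayed library, a log2 fold change of 6.35 ± 1.22 (SE, limma adjusted p = 0.208). The other copy, BnaA02g32350D, had 24.2 and 414 FPKM in the MeJA libraries, against 2.51 and 0.220 FPKM in the ethanol-UN65 libraries, a log2 fold change of 5.63 ± 1.47 (SE, limma adjusted p = 0.288). KTI4, a Kunitz trypsin inhibitor, had 174 and 370.0 FPKM in the MeJA libraries, against 35.3 and 20.07 FPKM in the ethanol-UN65 libraries at BnaC06g34210D. JAL35, a jacalin-related lectin, had 1619 and 1924 FPKM, against 541 and 199 FPKM, and TPS04, which makes the volatile terpene precursor geranyllinalool in Arabidopsis, had 45.0 and 65.3 FPKM, against 8.69 and 1.09 FPKM over 3 loci. BGLU18, a beta-glucosidase, did not separate the groups as clearly, with 2295 and 1998 FPKM in the MeJA libraries, against 1992 and 810.2 FPKM in the ethanol-UN65 libraries and 39.0 and 623 FPKM in the water libraries over 3 loci. Of 48 loci, 25 (52.1%, against 21.8% of all loci) had both MeJA libraries on the high side. Both were on the low side at 0, against 22.9% of all loci. The median was 0.93, and 11 loci (22.9%, against 4.79%) were higher at an unadjusted p under 0.05. Without ethanol-UN65 library 42 the list had 6 loci higher and a median of 0.58.

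The branch shared with ethylene split in its members. All 5 tested loci of CHIB, a basic chitinase, were higher at an unadjusted p under 0.05. CHIB BnaA03g32280D had 533 and 409 FPKM in the MeJA libraries, against 37.1 and 11.7 FPKM in the ethanol-UN65 libraries and 4.91 and 7.98 FPKM in the water libraries, a log2 fold change of 4.41 ± 0.82 (SE, limma adjusted p = 0.202), and the 5 loci together had 1234 and 1130.3 FPKM, against 92.5 and 36.5 FPKM. These were the only loci of the list at that level (19.2%, against 4.79% of all loci). The plant defensins, which are the usual markers of this branch, did not share it. PDF1.2a BnaC02g23620D had 79.1 and 122 FPKM in the MeJA libraries, against 41.3 and 106 FPKM in the ethanol-UN65 libraries and 13.3 and 23.2 FPKM in the water libraries, where the MeJA and ethanol-UN65 libraries overlapped, and PDF1.2b summed to 671 and 435 FPKM in the MeJA libraries, against 1297 and 652 FPKM in the ethanol-UN65 libraries over 2 loci, again with overlap. ORA59, the transcription factor of the branch, had 0.415 and 0 FPKM in the MeJA libraries, against 0.761 and 1.75 FPKM in the ethanol-UN65 libraries, at or near the minimum level. The median over 26 loci was 0.00.

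Genes of salicylic acid, a hormone often opposed to jasmonate, leaned the other way. Of 52 loci, 24 had both MeJA libraries below both ethanol-UN65 libraries, against 22.9% of all loci. Both lay above at 2 (3.85%, against 21.8%), and the median was -0.31. At an unadjusted p under 0.05, 4 were lower (7.69%, against 4.00% of all loci) and 1 was higher (1.92%, against 4.79%). 1 of the 4, CBP60g BnaA09g04040D, a regulator of salicylic acid synthesis, lies in the A09 stretch, and had 0.0385 and 2.02 FPKM in the MeJA libraries, against 2.88 and 4.65 FPKM in the ethanol-UN65 libraries and 0 and 0 FPKM in the water libraries. Without MeJA library 41 there were 1 lower and 2 higher, and without either ethanol-UN65 library 2 lower. WRKY70, a regulator between the 2 hormones, was lower in both MeJA libraries at all 6 of its loci and summed to 13.0 and 14.8 FPKM in the MeJA libraries, against 38.5 and 29.7 FPKM in the ethanol-UN65 libraries and 26.5 and 57.2 FPKM in the water libraries. ICS1, isochorismate synthase, had 4.11 and 6.94 FPKM in the MeJA libraries, against 12.3 and 9.64 FPKM in the ethanol-UN65 libraries at BnaCnng08300D. PR1, the classic marker of salicylic acid signalling, had 35.9 and 24.4 FPKM, against 28.4 and 30.6 FPKM, with overlapping groups.

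**Figure D2:**
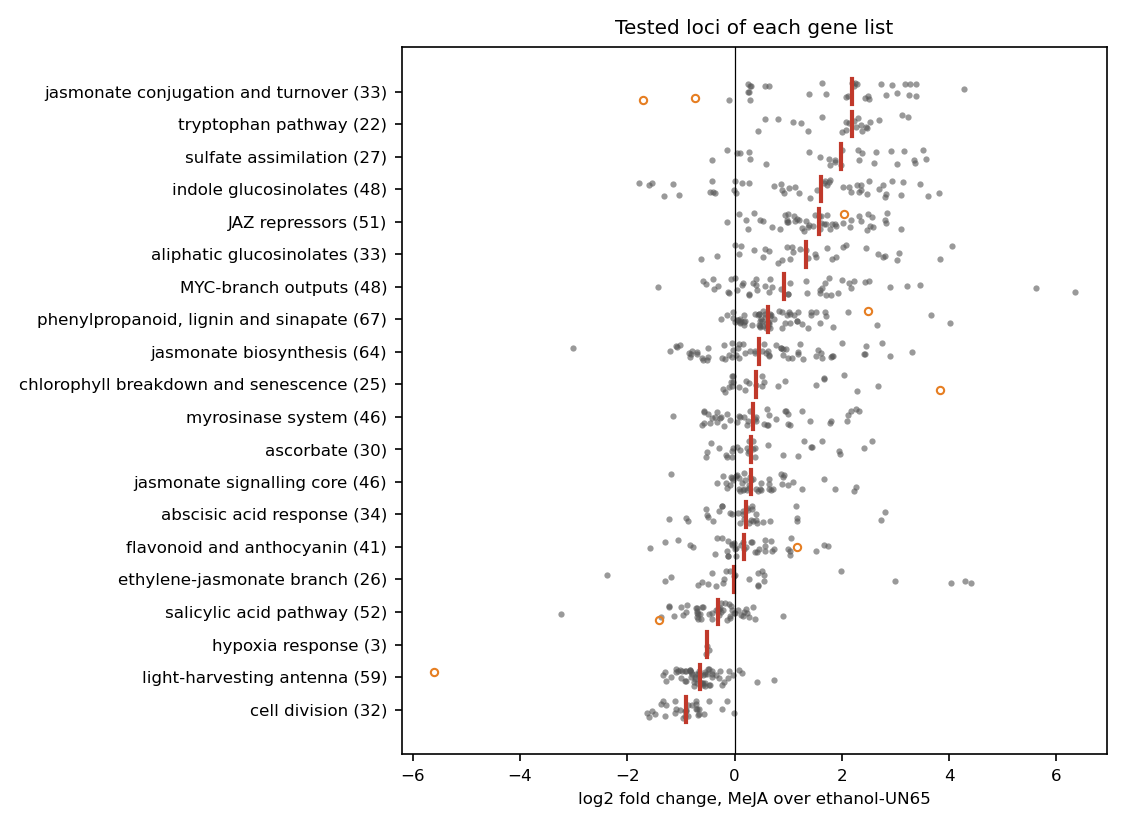
Log2 fold change of MeJA over ethanol-UN65 (horizontal axis) for every tested locus of each gene list, with the number of loci in brackets, the list median as a red bar and loci inside the chromosome stretches as open orange circles. Medians run between -0.90 for cell division and 2.19 for jasmonate conjugation and turnover and for tryptophan synthesis.

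Genes that feed and build indole glucosinolates were higher with MeJA along most of the route. Sulfate activation supplies the sulfate donor for the last step. APK1 and APK2, the kinases that make this donor (PAPS), had both MeJA libraries above both ethanol-UN65 libraries at every tested locus. APK1 BnaCnng47170D had 82.0 and 129.7 FPKM in the MeJA libraries, against 14.3 and 7.91 FPKM in the ethanol-UN65 libraries and 7.48 and 3.42 FPKM in the water libraries, a log2 fold change of 3.16 ± 0.50 (SE, limma adjusted p = 0.174), and APK2 summed to 166 and 232 FPKM in the MeJA libraries, against 30.0 and 5.28 FPKM in the ethanol-UN65 libraries and 1.33 and 1.198 FPKM in the water libraries over 5 loci. ATPS1, ATP sulfurylase, summed to 558 and 738 FPKM, against 210.0 and 144 FPKM over 3 loci. The reductive arm, which leads to cysteine, was mixed. APR1 and APR2, reductases of activated sulfate, had 24.1 and 19.4 FPKM, against 28.8 and 17.4 FPKM and 47.2 and 78.4 FPKM, against 52.6 and 63.6 FPKM, with overlapping groups, while the third, APR3, had 885 and 202 FPKM, against 119 and 105 FPKM. In total 18 of 27 sulfate loci (66.7%, against 4.79% of all loci) were higher and 0 lower at an unadjusted p under 0.05, with a median of 1.98.

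Tryptophan is the amino acid from which these compounds start, and its synthesis was higher at almost every step. Of 22 loci, 21 (95.5%, against 21.8% of all loci) had both MeJA libraries above both ethanol-UN65 libraries. The median was 2.19, and 18 loci (81.8%, against 4.79%) were higher at an unadjusted p under 0.05. ASA1, the anthranilate synthase subunit that sets the rate of the pathway, summed to 219 and 257 FPKM in the MeJA libraries, against 61.8 and 38.4 FPKM in the ethanol-UN65 libraries and 22.7 and 23.6 FPKM in the water libraries over 4 loci. TSA1, the tryptophan synthase alpha subunit, had 831 and 694 FPKM in the MeJA libraries, against 123 and 51.8 FPKM in the ethanol-UN65 libraries at BnaC08g25400D, a log2 fold change of 3.23 ± 0.63 (SE, limma adjusted p = 0.208). IGPS BnaC03g44420D, indole-3-glycerol phosphate synthase, had 135 and 128 FPKM, against 31.5 and 21.2 FPKM. DHS1, in the shikimate pathway upstream, differed less evenly, with 244 and 92.4 FPKM, against 90.4 and 97.0 FPKM over 2 loci.

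From tryptophan onward, each core enzyme was higher in both MeJA libraries. CYP79B2, which turns tryptophan into its oxime, summed to 467 and 388 FPKM in the MeJA libraries, against 80.4 and 18.9 FPKM in the ethanol-UN65 libraries and 2.68 and 5.77 FPKM in the water libraries over 5 loci, and CYP79B3 BnaA04g12790D had 15.5 and 35.3 FPKM, against 3.70 and 1.19 FPKM. CYP83B1, the next cytochrome P450, had 271 and 294 FPKM in the MeJA libraries, against 70.4 and 41.8 FPKM in the ethanol-UN65 libraries at BnaC08g05690D. SUR1, the C-S lyase, had the smallest adjusted p of the list. SUR1 BnaA07g00460D had 58.9 and 78.5 FPKM in the MeJA libraries, against 10.4 and 7.22 FPKM in the ethanol-UN65 libraries and 6.51 and 4.75 FPKM in the water libraries, a log2 fold change of 2.83 ± 0.33 (SE, limma adjusted p = 0.104), and BnaCnng43090D had 25.9 and 35.5 FPKM, against 6.32 and 4.38 FPKM, a log2 fold change of 2.32 ± 0.29 (SE, limma adjusted p = 0.104). UGT74B1, the glucosyltransferase, summed to 159.5 and 179 FPKM, against 33.5 and 21.5 FPKM, and SOT16, the sulfotransferase of the last step, to 599.9 and 472 FPKM, against 112 and 49.8 FPKM. MYB34, a transcription factor of this pathway, summed to 162 and 132 FPKM in the MeJA libraries, against 40.7 and 20.5 FPKM in the ethanol-UN65 libraries over 6 loci. Its relative MYB51 was lower in both MeJA libraries, with 0.894 and 2.16 FPKM in the MeJA libraries, against 5.18 and 10.4 FPKM in the ethanol-UN65 libraries and 2.51 and 7.34 FPKM in the water libraries over 3 loci, of which 2 were lower at an unadjusted p under 0.05. The genes that decorate the indole ring also differed among themselves: CYP81F4 had 14.9 and 37.3 FPKM, against 9.25 and 5.12 FPKM over 2 loci, whereas IGMT1, a methyltransferase, had 75.9 and 30.8 FPKM, against 59.9 and 78.9 FPKM over 5. Of 48 indole loci, 26 (54.2%, against 4.79% of all loci) were higher and 3 (6.25%, against 4.00%) lower at an unadjusted p under 0.05. The median was 1.61. Without ethanol-UN65 library 42 there were 14 higher, and without MeJA library 42 17.

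**Figure D3:**
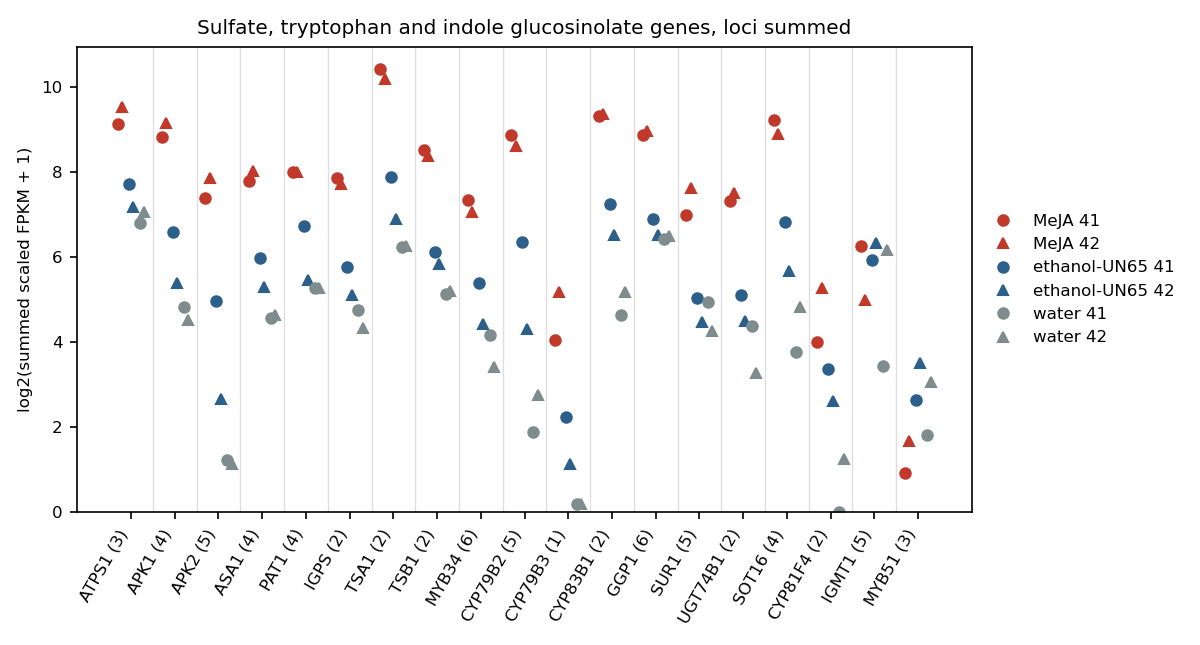
Summed levels of genes of sulfate activation (left), tryptophan synthesis and indole glucosinolate synthesis (right) in each sprayed library, as log2(summed scaled FPKM + 1), with the number of loci summed in brackets. The 2 MeJA points lie above all others for every gene but IGMT1, which overlaps, and MYB51, which has both MeJA points lowest.

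Aliphatic glucosinolates, built from methionine, showed the same direction with a wider gap between the MeJA libraries. MAM1 BnaA03g39710D, methylthioalkylmalate synthase of side-chain elongation, had 60.9 and 161 FPKM in the MeJA libraries, against 6.005 and 4.198 FPKM in the ethanol-UN65 libraries and 3.70 and 2.47 FPKM in the water libraries, a log2 fold change of 4.05 ± 0.63 (SE, limma adjusted p = 0.162). BCAT4, the first aminotransferase, was near 0 in all but 1 library, with 0.714 and 45.8 FPKM in the MeJA libraries, against 0.115 and 0.0746 FPKM in the ethanol-UN65 libraries and 0 and 0 FPKM in the water libraries. CYP83A1 summed to 109 and 227 FPKM, against 46.2 and 44.1 FPKM over 3 loci and SOT18, a sulfotransferase, to 54.6 and 90.6 FPKM, against 7.46 and 6.78 FPKM over 7. MYB29, a transcription factor of this arm that jasmonate induces in Arabidopsis, had 2.25 and 4.69 FPKM in the MeJA libraries, against 1.06 and 0.399 FPKM in the ethanol-UN65 libraries and 3.15 and 0.0741 FPKM in the water libraries, and its relative MYB28 had 0.649 and 4.34 FPKM in the MeJA libraries, against 2.43 and 1.62 FPKM in the ethanol-UN65 libraries and 7.19 and 1.46 FPKM in the water libraries over 3 loci, where groups overlapped. Of 33 loci, 17 (51.5%, against 4.79% of all loci) were higher and 0 lower at an unadjusted p under 0.05. Both MeJA libraries lay above both ethanol-UN65 libraries at 27 (81.8%, against 21.8%). The median was 1.34, and 0.94 without MeJA library 42, with 9 loci higher. Without ethanol-UN65 library 41 or 42 there were 10 and 9 higher. MeJA library 42 was the higher of its pair here, the reverse of jasmonate turnover.

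Myrosinases, the enzymes that split glucosinolates when tissue is crushed, did not follow. TGG1, the main leaf myrosinase, summed to 2775 and 1911 FPKM in the MeJA libraries, against 2862 and 2407 FPKM in the ethanol-UN65 libraries over 14 loci, with overlapping groups. Proteins that bind or steer myrosinase differed more. MBP2, a myrosinase-binding protein, had 1743 and 1837 FPKM in the MeJA libraries, against 457 and 283 FPKM in the ethanol-UN65 libraries at BnaA06g01990D, a log2 fold change of 2.31 ± 0.55 (SE, limma adjusted p = 0.249). MVP1, needed for sorting of myrosinase, summed to 199 and 321 FPKM, against 93.9 and 48.9 FPKM over 5 loci. Over 46 loci the median was 0.34, with 6 (13.0%, against 4.79% of all loci) higher and 1 (2.17%, against 4.00%) lower at an unadjusted p under 0.05.

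Ascorbate genes differed in some members only. VTC1, which makes GDP-mannose, had 262 and 403 FPKM in the MeJA libraries, against 97.5 and 70.1 FPKM in the ethanol-UN65 libraries at BnaC03g72590D, a log2 fold change of 1.96 ± 0.39 (SE, limma adjusted p = 0.209). DHAR1, dehydroascorbate reductase, had 422 and 547 FPKM in the MeJA libraries, against 93.5 and 70.1 FPKM in the ethanol-UN65 libraries at BnaC05g15180D, a log2 fold change of 2.55 ± 0.56 (SE, limma adjusted p = 0.228). VTC2, the GDP-galactose phosphorylase that controls the rate of synthesis, summed to 89.0 and 540.0 FPKM in the MeJA libraries, against 133 and 158 FPKM in the ethanol-UN65 libraries and 365 and 98.0 FPKM in the water libraries over 6 loci. Its values differed more within each of the MeJA and water pairs than between the group means, and log2 fold changes of its loci ran between -0.45 and 1.298. The list had 7 of 30 loci (23.3%, against 4.79% of all loci) higher and 0 lower at an unadjusted p under 0.05, with a median of 0.30. Without MeJA library 42 there were 4 higher and the median was 0.17, and without MeJA library 41 the median was 0.55.

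Phenylpropanoid genes, which lead to lignin and sinapate esters, had higher values by a smaller amount at most loci. Both MeJA libraries were above both ethanol-UN65 libraries at 39 of 67 loci (58.2%, against 21.8% of all loci) and below both at 0 (against 22.9%). The median was 0.62, and 11 loci (16.4%, against 4.79%) were higher at an unadjusted p under 0.05. The count of higher loci was 5 without ethanol-UN65 library 41, 5 without ethanol-UN65 library 42 and 7 without MeJA library 42, and the median was 0.38 with columns of equal totals. PAL2, phenylalanine ammonia-lyase, summed to 69.0 and 95.8 FPKM in the MeJA libraries, against 34.8 and 25.8 FPKM in the ethanol-UN65 libraries and 65.6 and 17.4 FPKM in the water libraries over 6 loci. C4H BnaC04g41120D, cinnamate hydroxylase, had 173 and 18.1 FPKM in the MeJA libraries, against 4.38 and 1.36 FPKM in the ethanol-UN65 libraries, a log2 fold change of 4.02 ± 1.06 (SE, limma adjusted p = 0.288). COMT1, the methyltransferase of lignin and sinapate synthesis, had its strongest locus, BnaA03g11990D, inside the A03 stretch that is low in ethanol-UN65 library 41. There it had 63.0 and 107 FPKM in the MeJA libraries, against 10.02 and 19.1 FPKM in the ethanol-UN65 libraries and 32.8 and 10.3 FPKM in the water libraries, a log2 fold change of 2.48 ± 0.93 (SE, limma adjusted p = 0.471), and the 3 COMT1 loci elsewhere had log2 fold changes of 0.10, 0.11 and 0.83. ELI3-2, an aromatic alcohol dehydrogenase, had 83.9 and 46.2 FPKM in the MeJA libraries, against 40.7 and 13.6 FPKM in the ethanol-UN65 libraries at BnaA08g15930D, a log2 fold change of 1.36 ± 1.07 (SE, limma adjusted p = 0.798). At the other two loci the log2 fold changes were 0.67 and 0.52.

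In the flavonoid list, 1 of 41 loci (2.44%, against 4.79% of all loci) was higher and 4 (9.76%, against 4.00%) lower at an unadjusted p under 0.05. The median was 0.17. With 1 library left out the median lay between 0.01 (without MeJA library 42) and 0.59 (without MeJA library 41), and leaving out MeJA library 41 gave 4 higher and 2 lower. UGT75C1 BnaA08g07620D, an anthocyanin glucosyltransferase, had 0.178 and 0.244 FPKM in the MeJA libraries, against 2.52 and 2.67 FPKM in the ethanol-UN65 libraries, all low. The other tested UGT75C1 locus went the other way, with a log2 fold change of 0.45. DFR, an enzyme of anthocyanin synthesis, had 0.771 and 1.03 FPKM in the MeJA libraries, against 4.11 and 2.05 FPKM in the ethanol-UN65 libraries. Its water libraries, at 0.721 and 1.32 FPKM, overlapped the MeJA libraries. PAP1, a transcription factor of the same route, summed to 4.67 and 11.9 FPKM, against 17.6 and 17.1 FPKM, with 24.3 and 9.42 FPKM in the water libraries. Its 2 loci split, with log2 fold changes of -1.29 and 0.69, and neither had an unadjusted p under 0.05 in limma. CHS, chalcone synthase, summed to 43.6 and 105 FPKM in the MeJA libraries, against 55.7 and 24.1 FPKM in the ethanol-UN65 libraries over 10 loci, with overlapping groups.

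For chlorophyll breakdown, 6 of 25 loci (24%, against 4.79% of all loci) were higher and 0 lower at an unadjusted p under 0.05, and the median was 0.40. 1 of the 6, BnaA03g04500D of the pheophytinase PPH, lies in the A03 stretch. Without MeJA library 41 there were 3 higher and the median was 0.18, while the median was 0.15 without ethanol-UN65 library 42 and 0.66 without MeJA library 42. PAO, pheophorbide a oxygenase, had 93.0 and 66.1 FPKM in the MeJA libraries, against 25.7 and 22.1 FPKM in the ethanol-UN65 libraries at BnaC01g24000D, a log2 fold change of 1.68 ± 0.49 (SE, limma adjusted p = 0.324). SGR1 BnaA01g12570D, the stay-green protein that removes magnesium from chlorophyll, had 24.7 and 40.4 FPKM in the MeJA libraries, against 6.47 and 2.47 FPKM in the ethanol-UN65 libraries and 9.48 and 2.302 FPKM in the water libraries. It was the only 1 of 5 tested SGR1 loci higher at an unadjusted p under 0.05, and their median log2 fold change was 0.21. NYC1, of the same list, summed to 146 and 87.0 FPKM, against 148 and 82.3 FPKM over 4 loci, with overlapping groups. Among genes of abscisic acid, the hormone of drought, 2 of 34 loci (5.88%, against 4.79% of all loci) were higher at an unadjusted p under 0.05. The share lower, 5.88%, was also near that of all loci (4.00%). The 2 higher loci were both RD26, a NAC transcription factor. RD26 had 56.4 and 22.2 FPKM in the MeJA libraries, against 7.54 and 2.21 FPKM in the ethanol-UN65 libraries at BnaA01g16400D, a log2 fold change of 2.80 ± 0.68 (SE, limma adjusted p = 0.257). The list had 2 of 34 loci lower at that level and a median of 0.21, and with 1 library left out the counts ran between 1 and 5 higher and between 0 and 4 lower. The 3 tested hypoxia loci, of ADH1 and LBD41, had none at an unadjusted p under 0.05 and log2 fold changes near -0.51.

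Light-harvesting antenna genes, which encode the chlorophyll-binding proteins of the photosystems, had lower values at most loci, but few differed by more than the spread. Both MeJA libraries were below both ethanol-UN65 libraries at 39 of 59 loci (against 22.9% of all loci) and above both at 1 (1.69%, against 21.8%). The median was -0.65, yet 1 locus (1.69%, against 4.00%) was lower at an unadjusted p under 0.05. That was LHCB2.3 BnaA09g02120D, inside the A09 stretch. The genes were uneven. LHCB2.1 summed to 871 and 1101 FPKM in the MeJA libraries, against 1865 and 2199 FPKM in the ethanol-UN65 libraries over 2 loci, while LHCB5 summed to 3364 and 6105 FPKM in the MeJA libraries, against 4003 and 5002 FPKM in the ethanol-UN65 libraries over 4 loci, with overlapping groups. LHCA1 BnaC08g25680D had 255 and 266 FPKM in the MeJA libraries, against 641 and 649 FPKM in the ethanol-UN65 libraries and 747 and 396 FPKM in the water libraries, a log2 fold change of -1.30 ± 0.66 (SE, limma adjusted p = 0.636). The water libraries spanned both groups. When columns were set to equal totals the antenna median was -0.88, beside -0.19 for all loci.

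Genes of the cell cycle were lower throughout the list. Both MeJA libraries lay below both ethanol-UN65 libraries at 29 of 32 loci (against 22.9% of all loci) and above both at 0 (against 21.8%). The median was -0.90, and 14 loci (43.75%, against 4.00%) were lower at an unadjusted p under 0.05. CYCD3;1, the D-type cyclin that lets cells enter division, was lower at 6 of its 7 loci at that level and summed to 14.3 and 9.06 FPKM in the MeJA libraries, against 42.3 and 35.9 FPKM in the ethanol-UN65 libraries and 17.6 and 32.5 FPKM in the water libraries. CYCD3;1 BnaA08g11350D had 3.85 and 1.88 FPKM in the MeJA libraries, against 11.2 and 10.1 FPKM in the ethanol-UN65 libraries, a log2 fold change of -1.64 ± 0.41 (SE, limma adjusted p = 0.273). MCM2, a subunit of the replicative helicase, summed to 4.73 and 3.49 FPKM in the MeJA libraries, against 10.4 and 12.5 FPKM in the ethanol-UN65 libraries and 6.40 and 6.46 FPKM in the water libraries over 4 loci. PCNA1, the DNA polymerase clamp, summed to 16.7 and 12.9 FPKM, against 32.5 and 44.9 FPKM. All of these levels were low, and against water the list median for MeJA was -0.41, smaller in size, and the ethanol-UN65 libraries lay above the water libraries by a median of 0.53. Without MeJA library 42 the count lower at an unadjusted p under 0.05 was 6, without ethanol-UN65 library 41 9 and without ethanol-UN65 library 42 8.

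Markers of leaf cell types differed as well, and how far a change in the share of a cell type rather than in RNA per cell lies behind any result cannot be told apart in whole leaves. The median log2 fold change was 0.61 for mesophyll (24 loci), 0.36 for guard cells (9), 0.46 for phloem (9) and -0.04 for epidermis (10). All 24 mesophyll loci had a log2 fold change above 0. At 13 (54.2%, against 21.8% of all loci) both MeJA libraries lay above both ethanol-UN65 libraries. Of the 24, 0 reached an unadjusted p under 0.05 in limma. Summed mesophyll markers were 40879 and 65789 FPKM in the MeJA libraries, against 30440.5 and 31194 FPKM in the ethanol-UN65 libraries and 60234 and 24704 FPKM in the water libraries, so that the water pair spanned both groups. In the phloem list 3 of 9 loci (33.3%, against 4.79% of all loci) were higher at that level, and 1 without MeJA library 42 or either ethanol-UN65 library. SUC2, the sucrose loader of companion cells, had 62.5 and 77.9 FPKM in the MeJA libraries, against 28.4 and 31.6 FPKM in the ethanol-UN65 libraries and 35.4 and 21.0 FPKM in the water libraries at BnaC07g13570D, while APL, a transcription factor of phloem identity, had 18.1 and 23.5 FPKM, against 18.8 and 19.1 FPKM over 5 loci, with overlapping groups. In the epidermis list, PDF1, a proline-rich protein of young epidermis (protodermal factor, not a defensin), was lower at all 3 loci at an unadjusted p under 0.05. Without MeJA library 41, MeJA library 42 or ethanol-UN65 library 41 there was 1. PDF1 BnaC04g48550D had 3.53 and 3.04 FPKM in the MeJA libraries, against 16.8 and 17.4 FPKM in the ethanol-UN65 libraries and 15.9 and 18.3 FPKM in the water libraries, a log2 fold change of -2.08 ± 0.64 (SE, limma adjusted p = 0.348). ATML1, the regulator of the same cell layer, had 27.1 and 35.8 FPKM, against 33.7 and 30.7 FPKM over 7 loci, with overlapping groups. The part that tissue make-up plays in the list values was not tested.

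Outside the lists, the 10 largest positive log2 fold changes among loci averaging 3 or more on the log2 scale included 4 cytochromes P450. At 5 of the 10, MeJA library 41 had over 5 times the level of MeJA library 42. CYP81D1 BnaC07g25290D had 373 and 28.04 FPKM in the MeJA libraries, against 2.70 and 0.911 FPKM in the ethanol-UN65 libraries and 0 and 0.367 FPKM in the water libraries, a log2 fold change of 5.29 ± 1.38 (SE, limma adjusted p = 0.288). CYP72A15 BnaC06g02740D had 967 and 26.1 FPKM in the MeJA libraries, against 7.79 and 4.498 FPKM in the ethanol-UN65 libraries, a log2 fold change of 4.54 ± 1.53 (SE, limma adjusted p = 0.407). BnaA04g21450D, a PhzC/PhzF family protein, had 304 and 29.2 FPKM in the MeJA libraries, against 5.98 and 2.49 FPKM in the ethanol-UN65 libraries, and BnaA02g18150D, an auxin efflux carrier family protein, had 142 and 19.1 FPKM, against 2.87 and 3.19 FPKM. More even was BnaCnng60030D, which matches CYP96A15 (MAH1), the alkane hydroxylase of stem wax in Arabidopsis. It had 125 and 119 FPKM in the MeJA libraries, against 5.47 and 7.16 FPKM in the ethanol-UN65 libraries and 0.207 and 4.87 FPKM in the water libraries, a log2 fold change of 4.08 ± 0.81 (SE, limma adjusted p = 0.209). BnaC05g10390D, a 2-oxoglutarate-dependent oxygenase, had 386 and 158 FPKM, against 21.9 and 12.5 FPKM, and BnaC01g38080D, a glycosyltransferase, had 22.8 and 43.1 FPKM, against 1.73 and 0.721 FPKM. 2 of the 10 largest, BnaA03g04730D and BnaA03g10740D, lie in the A03 stretch and had 0.127 and 0 FPKM in ethanol-UN65 library 41, against 29.2 and 12.6 FPKM in ethanol-UN65 library 42. None of the 10 was called.

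The 10 largest negative log2 fold changes were of another kind. All 10 lie on A09 or on scaffolds assigned to A09, 7 of them inside the A09 stretch. PSAN BnaA09g06690D, a photosystem I subunit, had 0.114 and 597 FPKM in the MeJA libraries, against 1069.5 and 953 FPKM in the ethanol-UN65 libraries and 1.73 and 0.487 FPKM in the water libraries. GSA1 BnaA09g06670D, an enzyme of chlorophyll synthesis, had 0.0964 and 22.6 FPKM in the MeJA libraries, against 70.0 and 84.3 FPKM in the ethanol-UN65 libraries and 0.294 and 0.166 FPKM in the water libraries, and RPL18 BnaA09g03890D, a ribosomal protein, had 0 and 9.99 FPKM, against 56.8 and 69.0 FPKM. In each, MeJA library 41 and both water libraries were at or near 0, and MeJA library 42 lay between them and the ethanol-UN65 libraries. Across the 421 tested loci of the stretch, levels relative to the median library had medians of -1.89 and -0.34 on the log2 scale in the MeJA libraries, 0.18 and 0.19 in the ethanol-UN65 libraries and -1.94 and -1.87 in the water libraries. 284 of these loci were lower with MeJA at an unadjusted p under 0.05, and the 3 stretches together held 297 of the 1988 loci lower and 44 of the 2380 higher. When the test was run on the loci outside them alone, 1719 were lower and 2363 higher at that level. Without MeJA library 42 the test called 284 loci, 207 of them lower, and 186 of the 284 lay inside the stretches, 11 more on scaffolds assigned to A09 and 11 in the gene lists.

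**Figure D4:**
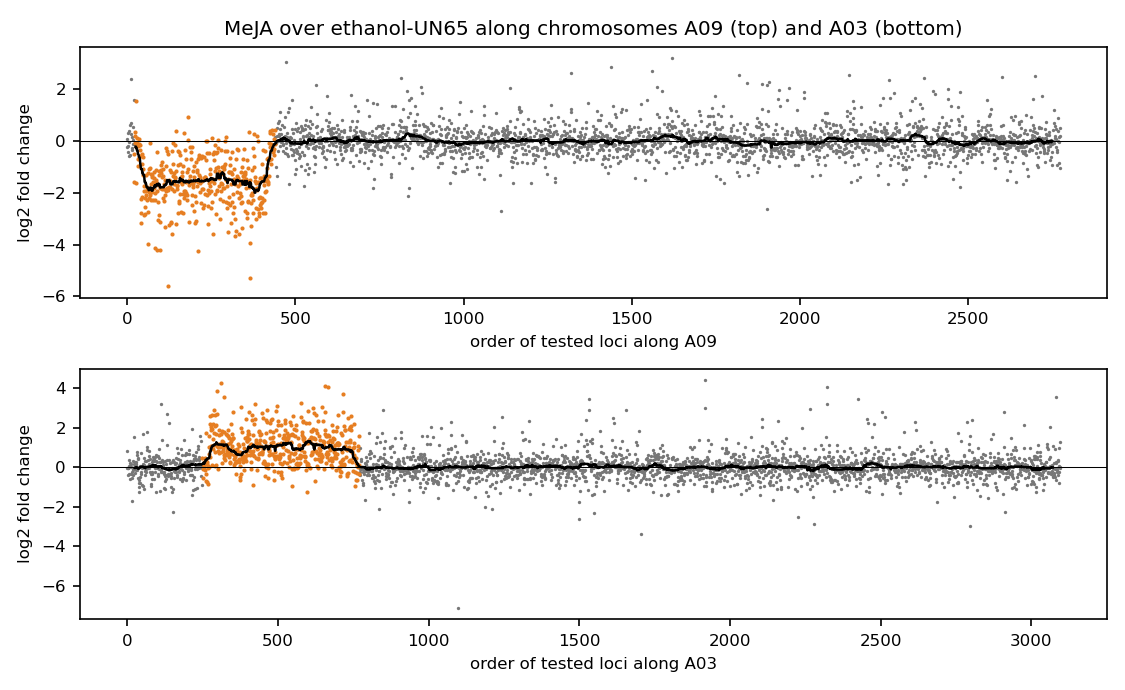
Log2 fold change of MeJA over ethanol-UN65 for tested loci in their order along chromosomes A09 and A03, with loci of the marked stretches in orange and the running median of 51 loci as a black line. The running median drops to between -1 and -2 over the A09 stretch and lies near 1 over the A03 stretch, whose medians are -1.54 and 0.93, and stays near 0 elsewhere.

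Of the 10 loci outside the lists and stretches with the most negative log2 fold changes, a choice made after values were seen, 4 lie on scaffolds assigned to A09. The other 6 were of several kinds. BnaC02g38640D, a copy of the lipid-transfer family gene AT5G48490, had 2.85 and 0.917 FPKM in the MeJA libraries, against 30.2 and 30.5 FPKM in the ethanol-UN65 libraries and 9.27 and 17.2 FPKM in the water libraries, a log2 fold change of -3.53 ± 0.68 (SE, limma adjusted p = 0.208). A second copy, BnaA02g30210D, had 5.84 and 2.56 FPKM in the MeJA libraries, against 38.5 and 40.6 FPKM in the ethanol-UN65 libraries. PORB BnaA03g48610D, a protochlorophyllide oxidoreductase of chlorophyll synthesis, had 33.8 and 10.3 FPKM in the MeJA libraries, against 130.1 and 188 FPKM in the ethanol-UN65 libraries and 83.9 and 172 FPKM in the water libraries, a log2 fold change of -2.99 ± 0.93 (SE, limma adjusted p = 0.357). pEARLI 1 BnaC03g29580D, another lipid-transfer family protein, had 3.64 and 12.9 FPKM in the MeJA libraries, against 47.3 and 83.0 FPKM in the ethanol-UN65 libraries and 3.63 and 64.7 FPKM in the water libraries, with the water libraries far apart. ACLB-2 BnaAnng28310D, an ATP citrate lyase subunit on an unplaced A scaffold, had 0.0426 and 22.8 FPKM in the MeJA libraries, against 37.7 and 42.4 FPKM in the ethanol-UN65 libraries and 0.0864 and 0 FPKM in the water libraries, the order of the A09 stretch. GSTF3 BnaCnng47740D, a glutathione S-transferase, had 3.40 and 3.55 FPKM in the MeJA libraries, against 28.3 and 36.9 FPKM in the ethanol-UN65 libraries.

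By list median, the ethanol-UN65 libraries lay above water for the JAZ genes, jasmonate synthesis, jasmonate turnover and MYC-branch outputs. In the signalling core and the ethylene-jasmonate branch they did not separate from water. At an unadjusted p under 0.05, 7 of 51 JAZ loci and 9 of 64 of jasmonate synthesis were higher with ethanol-UN65 than with water and 0 lower. Over all 49701 loci tested, 913 were higher and 564 lower. Indole glucosinolates had 10 of 48 loci higher and the myrosinase system 5 of 46, with 0 lower in either. The signalling core, jasmonate turnover and the ethylene-jasmonate branch had 0 loci in either direction, with medians of ethanol-UN65 over water of -0.04, 0.47 and 0.03. Relative to the mean of the ethanol-UN65 pair, the median JAZ level on the log2 scale was 1.88 and 1.28 in the MeJA libraries, 0.46 and -0.46 in the ethanol-UN65 libraries and -1.13 and -0.62 in the water libraries. For tryptophan synthesis it was 2.19 and 2.13 in the MeJA libraries, 0.30 and -0.30 in the ethanol-UN65 libraries and -0.73 and -0.77 in the water libraries. For sulfate assimilation it was 2.42 and 1.63 in the MeJA libraries, 0.32 and -0.32 in the ethanol-UN65 libraries and -0.99 and -0.51 in the water libraries. In these lists, as in jasmonate synthesis, jasmonate turnover and MYC-branch outputs, ethanol-UN65 library 41 lay above library 42 and both lay above the water libraries. Aliphatic glucosinolates did not share this order, with 0.94 and 1.74 in the MeJA libraries, 0.05 and -0.05 in the ethanol-UN65 libraries and 0.20 and -0.10 in the water libraries. AOS BnaC02g29610D was 94.9 FPKM in ethanol-UN65 library 41 and 26.9 FPKM in library 42, against 9.39 and 13.5 FPKM in the water libraries, a log2 fold change of ethanol-UN65 over water of 2.07 ± 0.75 (SE, limma adjusted p = 1). Over all loci, 2 were called between ethanol-UN65 and water. The 913 loci higher with ethanol-UN65 include loci of the A09 stretch, such as RPL18 BnaA09g03890D. Levels across its 421 loci had medians of 0.18 and 0.19 in the ethanol-UN65 libraries and -1.94 and -1.87 in the water libraries. How many of the 913 and 564 loci lie in the chromosome stretches was not counted. With water in place of ethanol-UN65 as the control, 226 loci were called for MeJA, 219 of them higher, but this comparison shares the MeJA libraries and whether the 2 differ was not tested. Why ethanol-UN65 library 41 lay above library 42 was not tested.

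**Figure D5:**
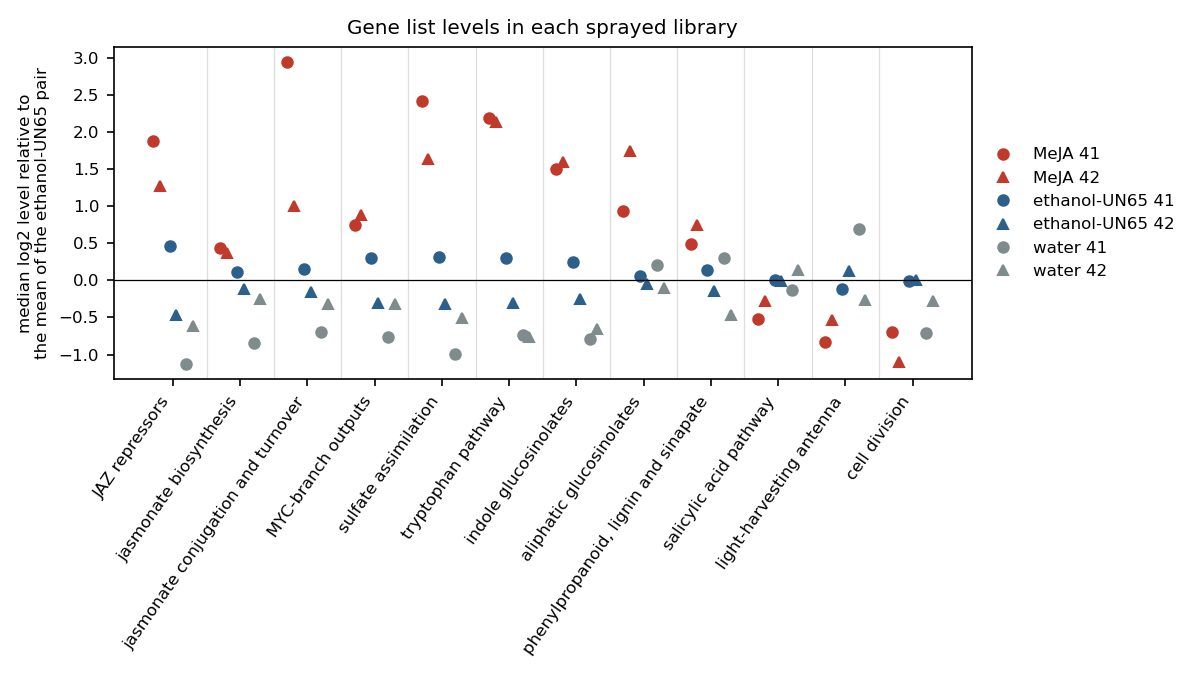
Median level of 12 gene lists in each sprayed library, relative to the mean of the ethanol-UN65 pair at each locus (log2 scale), with MeJA in red, ethanol-UN65 in blue and water in grey, circles for library 41 and triangles for library 42. Both MeJA points lie above the ethanol-UN65 points for the first 9 lists and below them for the last 3, and for the 4 jasmonate lists at the left both water points lie below ethanol-UN65 library 42.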

How the data were processed

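RNA was extracted from true leaves, and libraries were made with a TruSeq RNA kit and sequenced on an Illumina NextSeq. Per the labels and the study's methods, the authors aligned reads with TopHat2 2.1.12 to Brassica sequences and made FPKM with Cufflinks 2.2.1, and matched loci to Arabidopsis (TAIR10). The B. napus build is not given in the sources used here. Although its name speaks of read counts, the deposited matrix holds FPKM: averaging the 2 ethanol-UN65 columns gives the authors' FPKM group value at all 101040 loci (relative tolerance 0.0001), so no count model was used. The authors' tables were scaled separately. The deposited MeJA group FPKM in the water table was 1.02 times that in the ethanol-UN65 table (5th to 95th percentile 1.015 to 1.017, 43431 loci), a nearly constant factor that the median ratio removes. The authors' own fold changes, p-values and q-values, and 22 single-library columns without a matching label, were left out.

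The 12 libraries were scaled by the median of their ratios to the mean library (loci above 0 in all), 1 was added, and log2 taken. Loci that reached 1 FPKM in 2 or more libraries entered limma 3.58.1 (R 4.3.3), which fitted a mean for each of 6 groups, with a trend in the prior variance and Benjamini-Hochberg adjustment over all loci. The step was checked on simulated data with changes placed only in loci well above the minimum level, so loci as low as the called ones were not covered. Chromosome stretches were joined windows of 51 tested loci (step 10) in which a library's median log2 level lay at -1 or below when set against the median over libraries. Fold changes on the log2(FPKM + 1) scale understate those of low loci, and near-identical A and C copies can share reads.

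The comparison, gene lists and tests were chosen with earlier results of these data known. Loci were picked for naming by a rule, and not all of those picked are printed. The rule took every called locus and the 3 smallest p of each list. It took every tested locus of VSP2, JAZ10, LOX2, AOS, MYC2, PDF1.2a, CYP79B3, ELI3-2, COMT1 and VTC2 (a range where over 4). It also took the 10 largest changes each way outside the lists. These needed an Arabidopsis match, a mean log2 value of at least 3, an unadjusted p under 0.05 and no overlap of the groups. Other loci and sums over the loci of a gene were chosen after their values were seen. Alternatives covered the filter, pseudocount, scaling, libraries fitted, replicate block, fold minimum, variance trend, single libraries, stretches and control. Counts of loci at an unadjusted p under 0.05, in all and by list and stretch, were added to them after seeing the data.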

Additional observations from a re-analysis of the deposited data

How the results depend on the processing

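The 2 calls depended on the settings. The count was 0 with at least 1 FPKM in 4 libraries, a filter that leaves both called loci untested. It was also 0 with a pseudocount of 0.1 or 0.5, and with the 4 or the 6 sprayed libraries fitted alone. It was 11 with no filter, 5 with values as deposited and 226 with water as the control. In these limma fits with a count of 0, the loci at an unadjusted p under 0.05 were 2226 to 2883 higher and 1837 to 3008 lower. Leaving out 1 library gave 0 to 284 calls, with 0 without MeJA library 41 or ethanol-UN65 library 41, 24 without ethanol-UN65 library 42 (15 inside the chromosome stretches) and 284 without MeJA library 42. The lone library is then assumed to vary like the other groups. Equal totals, no fold minimum, no variance trend and loci outside the stretches gave 2. Loci at an unadjusted p under 0.05 numbered 1498 higher and 3091 lower with equal totals, 3008 lower in the 4 libraries alone and 1074 lower against water, and 1250 to 1439 lower and 1600 to 2193 higher with 1 library left out. The replicate block gave 0 calls, with 2329 higher and 2109 lower. The numbers were not taken as pairs, since deviations of libraries with the same number correlated at 0.094 between the 2 groups, and between -0.372 and 0.409 over 15 pairs of groups.

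Under the alternatives, 49 list medians, marker lists included, moved by at least the spread of library medians within groups, and 215 moved by less. With the marker lists left aside, list medians changed sign in 3 lists, all small: the ethylene-jasmonate branch (0.28 with 4 libraries in the filter, 0.11 without MeJA library 42 and 0.07 without ethanol-UN65 library 42), flavonoids (-0.02 with equal totals) and abscisic acid (0.00 without MeJA library 41). Of 144 loci picked for naming, not all of them printed, 14 changed direction under at least 1 alternative, 22 of 1584 values. None had been called. With equal totals the COMT1 loci BnaA10g07270D and BnaC09g30560D were at -0.12 and -0.067, and BnaC09g30560D was at -0.081 with a pseudocount of 0.1. The others turned with 1 library left out, which gave log2 fold changes of -1.13 to 1.33 and -1.05 to 1.27 at these COMT1 loci. The VTC2 loci ran over -0.050 to 2.65 at BnaA01g15950D, -1.34 to 1.88 at BnaA08g14270D, -1.69 to 0.79 at BnaC01g19060D, -0.30 to 0.025 at BnaC07g40500D and -0.53 to 0.23 at BnaC08g12340D. The LOX2 loci ran over -2.31 to 0.12 at BnaA02g11430D, -0.52 to 0.039 at BnaCnng70030D and -0.024 to 1.13 at BnaCnng78230D. ADH1 BnaA07g33310D ran over -1.05 to 0.028, PDF1.2a BnaC02g23620D over -0.12 to 1.23, ELI3-2 BnaC03g61120D over -0.75 to 2.09 and JAZ10 BnaC03g71460D over -0.72 to 2.72. The cause was not tested. With 2 libraries a group and unknown read numbers, differences at low loci cannot be resolved.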

Other observations

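A set of genes differed within both the MeJA and the water pair, and is given as values, chosen after they were seen. ASN1, an asparagine synthetase known in Arabidopsis for induction by darkness and low sugar, summed to 53.5 and 1.32 FPKM in the MeJA libraries, against 0.975 and 0.886 FPKM in the ethanol-UN65 libraries and 0.131 and 25.5 FPKM in the water libraries over 3 loci. SEN1, also known as a dark-induced gene, summed to 678 and 45.5 FPKM in the MeJA libraries, against 179.6 and 84.4 FPKM in the ethanol-UN65 libraries and 69.0 and 583 FPKM in the water libraries over 2 loci. KAT2, a thiolase of beta-oxidation, had 1349.7 and 243 FPKM in the MeJA libraries, against 254 and 156 FPKM in the ethanol-UN65 libraries and 116 and 644 FPKM in the water libraries over 7 loci, and NSP5, a nitrile specifier protein, had 342 and 43.9 FPKM in the MeJA libraries, against 32.4 and 32.3 FPKM in the ethanol-UN65 libraries and 7.85 and 159 FPKM in the water libraries over 4 loci. In all 4 genes MeJA library 41 and water library 42 were the higher of their pairs. CA1, a carbonic anhydrase of leaf mesophyll, had the opposite order, with 1307 and 2523 FPKM in the MeJA libraries, against 837 and 714 FPKM in the ethanol-UN65 libraries and 2613 and 550.2 FPKM in the water libraries over 3 loci, as did VTC2 and UGT84A2, a sinapate glucosyltransferase, with 14.4 and 139.5 FPKM in the MeJA libraries, against 17.7 and 10.9 FPKM in the ethanol-UN65 libraries and 60.9 and 11.2 FPKM in the water libraries over 4 loci. By these sums, ASN1, NSP5 and CA1 had both MeJA libraries above both ethanol-UN65 libraries. In the other genes of the set the sums of the 2 groups overlapped, though 5 of the 7 KAT2 loci had both MeJA libraries above. The labels give no harvest time of day or position for these libraries.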
